A study of Mus musculus with 6 samples.

Results

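The 7 genes described here encode the core of the MHC class II antigen presentation machinery, and all 7 were found by symbol among the 24421 genes of the deposited table. They are H2-Ab1, H2-Aa and H2-Eb1 (chains of the class II molecules themselves), Cd74 (the invariant chain), H2-DMa and H2-DMb1 (peptide loading) and Ciita (the transcriptional activator of the others). They are taken by symbol with no threshold on a value, though earlier results of these data were known when the set was drawn up. RNA came from mCherry-positive cells sorted from mouse cortex at postnatal day 21 and labelled as astrocytes. The CD51-Flp mice had received, after birth, a viral vector (AAV-GFAP-FSF-hM3D-mCherry) in which the GFAP promoter drives the Gq-coupled designer receptor hM3D with mCherry once Flp has acted. The CNO group (replicates 1, 2 and 3) was injected with clozapine-N-oxide, the ligand of hM3D, and the saline group (replicates 3, 4 and 5) with saline, in both groups 2 times per day from day 7 to day 21. Both groups carry Flp, the vector and the receptor, so CNO acting apart from the receptor cannot be told apart from receptor activation. Labels give neither the strain nor whether a library held 1 animal or a pool, and p-values therefore reflect library-to-library spread, which may be technical.

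Class II molecules are pairs of an alpha and a beta chain that show peptides from the endosome to CD4 T cells. The mouse molecule I-A is built from the products of H2-Aa and H2-Ab1, and I-E uses the product of H2-Eb1 as its beta chain. Cd74 protein blocks the groove until the endosome, where the H2-M dimer (H2-DMa with H2-DMb1) exchanges its last fragment for peptide, and Ciita protein, which is induced by interferon gamma, is the master regulator that switches the other genes on. In healthy brain these transcripts are known mostly from border-associated macrophages and dendritic cells, and from microglia when activated.

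The libraries were not alike before any class II gene was read. CNO 1 held 3908076 reads and the other 5 held 12010901 to 19224186. The CNO libraries had a read for 8618 to 12820 genes and the saline libraries for 14141 to 14491. All 10 astrocyte markers had reads in every library, and so did the border-associated macrophage markers (7 of 7) and, except for Aif1 in CNO 1, the microglia markers (10 of 10). Oligodendrocyte markers took 111050, 243990 and 187440 reads per 1000000 reads of the library (RPM) in CNO 1, 2 and 3 and 53029 to 77788 in saline. Of these 8 markers 6 were higher in CNO without overlap, where 4.57% of tested genes were, and the myelin genes Mbp (limma adjusted p = 0.00692) and Mobp (limma adjusted p = 0.00926) were the only 2 genes called in limma. The part of this difference in the class II values was not tested. In bulk RNA such as this, fewer cells of a type and less RNA per cell cannot be told apart. Values below are normalized counts unless given as reads or RPM. Normalized counts are reads divided by a size factor that the authors set for each library. Each read counts as 4.23 normalized counts in CNO 1 and as 0.503 to 0.970 elsewhere.

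Class II RNA was uneven among the CNO libraries and lower in RPM than in saline. The 7 genes together held 236, 322 and 4 reads in CNO 1, 2 and 3, or 60.4, 16.7 and 0.234 RPM. In saline 3, 4 and 5 they held 7303, 1276 and 2033 reads, or 420.0, 106 and 107 RPM. The groups did not overlap on this sum in RPM, although the CNO values spanned over 2 orders of magnitude. Summed normalized counts were 997, 238 and 3.88 in CNO 1, 2 and 3 and 4140, 1021 and 1023 in saline 3, 4 and 5. These did not overlap either, but CNO 1 lay close below saline 4 and 5. RPM, which divides by total reads, sets the CNO libraries lower against saline than the authors' scaling does. A read was found for 2, 7 and 3 of the 7 genes in CNO 1, 2 and 3, and for 6, 6 and 7 in saline 3, 4 and 5. In CNO 1, H2-Aa alone made up 91.9% of the class II reads, in CNO 2 Ciita made up 41.3%, and in saline 3 Cd74 made up 48.0%.

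**Figure D1:**
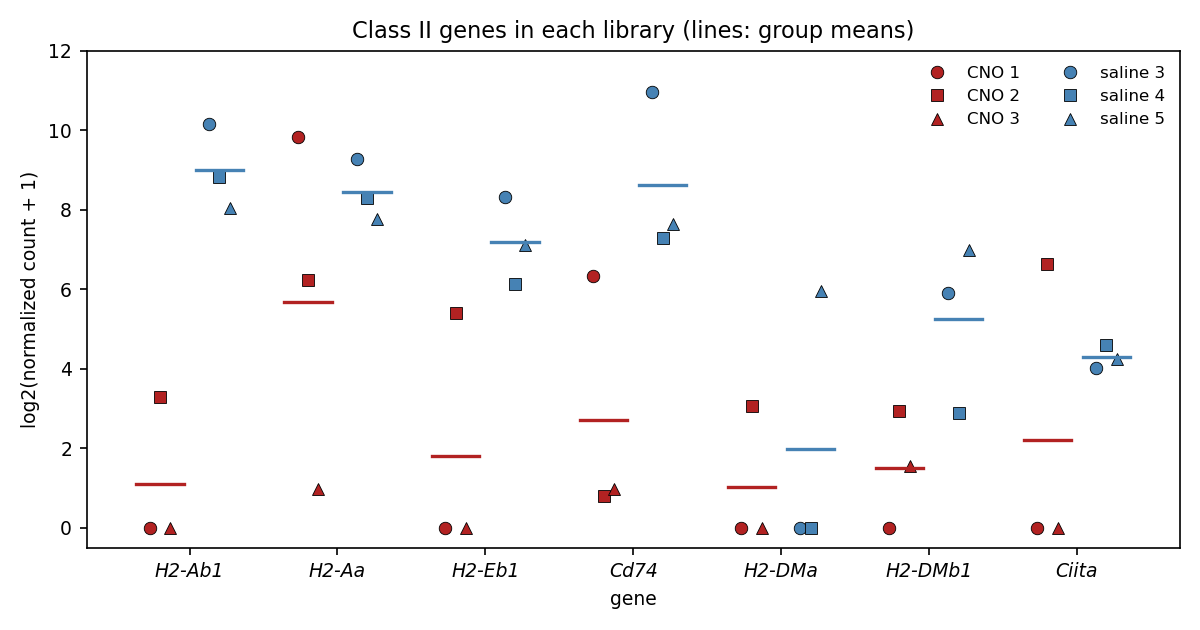
Log2 of the normalized count plus 1 (vertical axis) for each of the 7 class II genes, with 1 point per library, CNO in red and saline in blue, and lines at the group means. For H2-Ab1, H2-Eb1 and Cd74 all 3 CNO points lie below the lowest saline point, while CNO 1 is the highest of all 6 libraries for H2-Aa and CNO 2 for Ciita.

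Proximal promoters of class II genes carry an X box and a Y box, to which the RFX and NF-Y complexes bind and recruit Ciita protein. RefSeq's promoter sequences (GRCm38.p6, 250 bases before to 50 after the start) held 4 of the 7 genes, H2-Aa, H2-Eb1, H2-DMa and H2-DMb1. The windows of H2-Eb1, H2-DMb1 and H2-Aa are shown because the 3 transcripts were not alike across the CNO libraries, with H2-Aa highest in CNO 1 where the other two had 0 reads. They lie at chr17:34305617-34305916 (plus strand), chr17:34152941-34153240 (plus strand) and chr17:34287774-34288073 (minus strand). Capitals mark matches on either strand to AACNGATG (the downstream part of the X box), TGACGTCA (the cyclic AMP response element, a close relative of the element next to the X box) and ATTGG (the Y box core, an inverted CCAAT), and no match overlapped another.
H2-Eb1: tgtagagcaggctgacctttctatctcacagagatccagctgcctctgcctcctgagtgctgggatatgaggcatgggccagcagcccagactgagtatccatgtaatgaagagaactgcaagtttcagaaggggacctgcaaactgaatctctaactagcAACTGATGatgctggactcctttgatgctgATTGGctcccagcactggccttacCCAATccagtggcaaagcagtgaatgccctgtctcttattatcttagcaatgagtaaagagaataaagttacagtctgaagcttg
H2-DMb1: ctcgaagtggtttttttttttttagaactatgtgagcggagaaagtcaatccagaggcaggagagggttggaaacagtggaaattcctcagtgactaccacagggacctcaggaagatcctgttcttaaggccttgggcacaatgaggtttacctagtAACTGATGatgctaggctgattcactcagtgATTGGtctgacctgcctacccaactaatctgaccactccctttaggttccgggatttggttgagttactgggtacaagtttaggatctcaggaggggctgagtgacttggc
H2-Aa: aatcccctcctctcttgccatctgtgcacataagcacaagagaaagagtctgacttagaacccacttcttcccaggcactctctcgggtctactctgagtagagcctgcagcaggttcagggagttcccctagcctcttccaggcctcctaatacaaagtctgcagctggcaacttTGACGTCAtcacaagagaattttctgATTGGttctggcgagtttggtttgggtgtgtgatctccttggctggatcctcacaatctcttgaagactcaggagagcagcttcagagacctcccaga
AACNGATG began 89 bases before the start in H2-Eb1 and 92 in H2-DMb1, with ATTGG at 59 and 61. H2-Eb1 held a further match to the Y box core, on the other strand, at 35. In H2-Aa AACNGATG had no match, while TGACGTCA began 74 bases before the start and ATTGG 48. Of 32851 promoter windows of the same length, 2.32% held AACNGATG, 1.79% TGACGTCA and 37.4% ATTGG. H2-DMa had 2 windows, of which 1 held ATTGG and neither held the other motifs. A match in letters is not evidence of binding in these cells, and any relation of these motifs to the expression values was not tested. H2-Ab1, Cd74 and Ciita had no window to compare.

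H2-Ab1, the beta chain of I-A (chromosome 17, 34257689 to 34269419, plus strand, GRCm38), differed most. CNO 1, 2 and 3 measured 0, 8.88 and 0 normalized counts, and saline 3, 4 and 5 measured 1143, 454 and 263. These are 0, 12 and 0 reads against 2017, 567 and 523. Every saline library lay far above every CNO library. The means were 2.96 ± 5.13 in CNO and 620 ± 463 in saline (SD, n = 3 each), a ratio of 210. A count of 0 allows up to 3 reads, and with both zeros set to that floor the ratio was 76.0. The ratio of means was 121 without saline 3 and 140 without CNO 1 or CNO 3, and without CNO 2 the CNO mean was 0. In CNO 1, where 3 reads equal 12.7 normalized counts, H2-Ab1 was at least 20.8-fold lower than in the lowest saline library, and in CNO 3 at least 90.4-fold lower. These floors, and the exact binomial intervals given further on, cover counting error only. The 95% intervals of log2 fold changes reflect the spread between libraries. The log2 fold change was -7.91 ± 1.96 (SE, 95% interval -12.2 to -3.61), and only 0.0154% of the 13028 tested genes had a lower one. It did not pass in limma, the main test (unadjusted p = 0.00184, adjusted p = 0.488), nor in edgeR's quasi-likelihood test (adjusted p = 0.535), but passed in DESeq2 (log2 fold change -7.47, adjusted p = 5.2e-05).

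Cd74, the invariant chain (chromosome 18, 60803848 to 60812652, plus strand), also separated the groups. CNO 1, 2 and 3 measured 80.3, 0.740 and 0.970, from 19, 1 and 1 reads, and saline 3, 4 and 5 measured 1988, 156 and 200.3. The groups did not overlap, but saline 3 stood far above the other saline libraries and the SD of saline exceeded the difference between the means. Means were 27.3 ± 45.9 and 781 ± 1045 (SD, n = 3 each), a ratio of 28.6 that was 6.52 without saline 3 and 914 without CNO 1. The log2 fold change of -5.93 ± 2.11 did not pass in limma (unadjusted p = 0.0164, adjusted p = 0.488) or edgeR (adjusted p = 0.535), and DESeq2 gave Cd74 no p-value. With 1 library left out, the log2 fold change ran from -7.75 (without CNO 1) to -4.77 (without saline 3).

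H2-Eb1, the beta chain of I-E (chromosome 17, 34305867 to 34316674, plus strand), had 0 reads in CNO 1 and 3 and 41.4 normalized counts in CNO 2, against 319, 69.6 and 137 in saline 3, 4 and 5. The groups did not overlap, but CNO 2 came close to saline 4. Means were 13.8 ± 23.9 and 175 ± 129 (SD, n = 3 each), a ratio of 12.7, or 9.22 with the zeros set to the floor. The ratio was 7.48 without saline 3 and 8.46 without CNO 1 or CNO 3, and without CNO 2 the CNO mean was 0. The log2 fold change was -5.39 ± 2.19 (limma unadjusted p = 0.0307, adjusted p = 0.497). DESeq2 did not call it either (adjusted p = 0.405). The gene of the partner alpha chain, listed as the pseudogene H2-Ea-ps and looked up after the values were seen, had 0 reads in all 6 libraries.

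H2-Aa, the alpha chain of I-A (chromosome 17, 34282744 to 34287823, minus strand), did not follow its partner. CNO 1, 2 and 3 measured 917, 74.7 and 0.970, and saline 3, 4 and 5 measured 616, 312 and 216. In normalized counts the highest value of all came from CNO 1, the library in which H2-Ab1 had 0 reads, and the groups overlapped. In RPM, CNO 1 (55.5, from 217 reads) lay below saline 3 (62.5, from 1086 reads), and the groups overlapped as well. Means were 331 ± 509 and 381 ± 208 (SD, n = 3 each), a ratio of saline to CNO of 1.15. That ratio was 10.1 without CNO 1 and below 1 without CNO 2 (0.831), CNO 3 (0.769) or saline 3 (0.799). The log2 fold change of -2.75 ± 1.97 (95% interval -7.08 to 1.57, limma adjusted p = 0.641) was -4.83 without CNO 1 and -0.40 without CNO 3. In edgeR it was -0.45 and in DESeq2 -0.21.

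The 2 chains of I-A thus stood in different proportions in the libraries. H2-Aa made up 35.0% of the reads of both chains in saline 3 (95% exact binomial interval 33.3 to 36.7), 40.8% in saline 4 (37.6 to 43.9) and 45.1% in saline 5 (41.9 to 48.3). In CNO 1 it made up 100% of 217 reads (98.3 to 100) and in CNO 2 89.4% of 113 reads (82.2 to 94.4). CNO 3 held a single I-A read, from H2-Aa, so its interval of 2.5 to 100 says nothing. Among the libraries with more than 1 such read, the intervals of the CNO libraries lay above those of the saline libraries. Reads without molecular identifiers are not independent molecules, so these intervals are narrower than the true error.

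**Figure D2:**
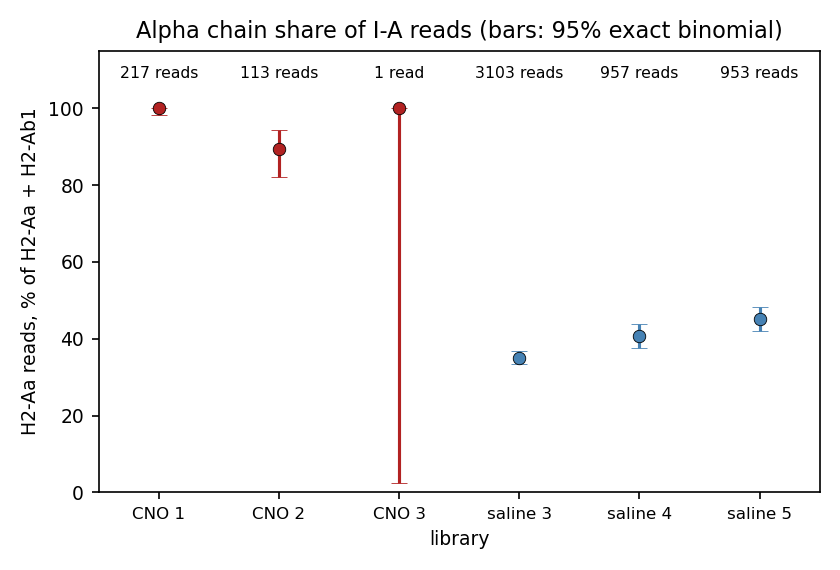
Share of H2-Aa among the reads of H2-Aa and H2-Ab1 (percent, vertical axis) in each library, with 95% exact binomial intervals as bars and the number of reads above. The saline libraries sit at 35.0% to 45.1%, CNO 1 at 100% and CNO 2 at 89.4%, and the bar of CNO 3 rests on 1 read.

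The genes of the H2-M peptide editor were rare in both groups. H2-DMa (chromosome 17, 34119541 to 34139101, plus strand) had reads in 1 library of each group, at 7.40 normalized counts in CNO 2 and 61.4 in saline 5. Saline 3 and 4 were at 0, as were CNO 1 and 3, and the gene met the filter on low values through saline 5. H2-DMb1 (chromosome 17, 34153072 to 34160230, plus strand) measured 0, 6.66 and 1.94 in the CNO libraries, in order of number, and 59.0, 6.40 and 127 in the saline libraries. Its groups overlapped through CNO 2 and saline 4. Log2 fold changes were -0.96 ± 1.90 for H2-DMa (limma adjusted p = 0.852) and -3.77 for H2-DMb1 (95% interval -8.14 to 0.61, limma adjusted p = 0.558). Without saline 5 that of H2-DMa was 1.02, and with quantile scaling that of H2-DMb1 was -0.71. The value of H2-DMb1 is uncertain because its close paralog H2-DMb2, at 0 to 13.6 normalized counts, may share reads with it.

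Ciita, the activator (chromosome 16, 10480059 to 10528418, plus strand), was not ordered as the chains were. CNO 1, 2 and 3 measured 0, 98.4 and 0, and saline 3, 4 and 5 measured 15.3, 23.2 and 18.1. The highest level came from CNO 2, which held 133 Ciita reads but 12 of H2-Ab1 and 1 of Cd74, while the 3 saline libraries lay close together. Its mean was 32.8 ± 56.8 in CNO and 18.9 ± 4.01 in saline (SD, n = 3 each), a ratio of CNO to saline of 1.74, but its log2 fold change was -2.08 ± 2.20 (limma adjusted p = 0.726), since 2 CNO libraries were at 0. It was -4.29 without CNO 2, and above 0 in edgeR (0.75) and DESeq2 (0.81). In CNO 1, the 15.3 of saline 3 would be only 1.21 times the floor, so a level like that of the saline libraries was barely detectable there.

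Set against all genes, the 3 genes that separated the groups have to be read in a data set where low values in CNO were common. Of the 7 genes, 3 were lower in CNO without overlap, and 12.5% of tested genes were. At an unadjusted p under 0.05 in limma the same 3 were lower and 0 higher, against 7.25% and 2.28% of tested genes. No class II gene passed the adjusted threshold in limma in either direction, where 0.0% of tested genes were called lower and 0.0154% higher. edgeR called 0.0% lower and likewise none of the 7. DESeq2 called 1 of the 7 (H2-Ab1) as lower and 0 as higher, beside 1.56% and 0.586% of the genes it gave an adjusted p. Run on all genes with a read, it called H2-Ab1 again and 3.95% of genes as lower. All 7 log2 fold changes were below 0 in limma with the authors' scaling, as were those of 68.3% of tested genes, but with quantile scaling those of Ciita (1.06) and H2-DMa (1.12) were above 0. With the authors' scaling the median over the 7 genes was -3.77, against -0.89 over all tested genes. Genes of lower level had lower medians. For means over the 6 libraries of 10 to 50, 50 to 200 and 200 to 500, medians were -2.33, -1.94 and -0.83. In these ranges, which hold the 7 genes, 84.5%, 83.0% and 69.8% of log2 fold changes were below 0.

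Genes of the same level show how common zeros were. Among the 2709 tested genes with a mean of 200 to 500 over the 6 libraries, the range that holds H2-Ab1, H2-Aa and Cd74, 19.9% were at 0 reads in CNO 1, 1.44% in CNO 2 and 4.65% in CNO 3. The saline libraries had 0.221% to 0.443% at 0. In that range 1.14% were at 0 in 2 or more CNO libraries, as H2-Ab1 was, and 9.08% were lower in CNO without overlap. Among genes with a mean of 50 to 200, the range of H2-Eb1, 16.6% were at 0 in 2 or more CNO libraries and 16.7% were lower without overlap. For genes with a mean of 10 to 50, the range of H2-DMa, H2-DMb1 and Ciita, the share at 0 in 2 or more CNO libraries was 59.9%. These ranges rest on the mean over all 6 libraries. A gene placed in a range by its CNO values is less likely to be at 0 in CNO, so the shares depend in part on this choice. H2-Ab1 and Cd74 reached their range through saline, with CNO means of 2.96 and 27.3. H2-Ab1, H2-DMa and H2-DMb1 met the filter of 10 only through saline, with CNO means of 2.96, 2.47 and 2.87. The part of these zeros in the class II values was not tested.

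**Figure D3:**
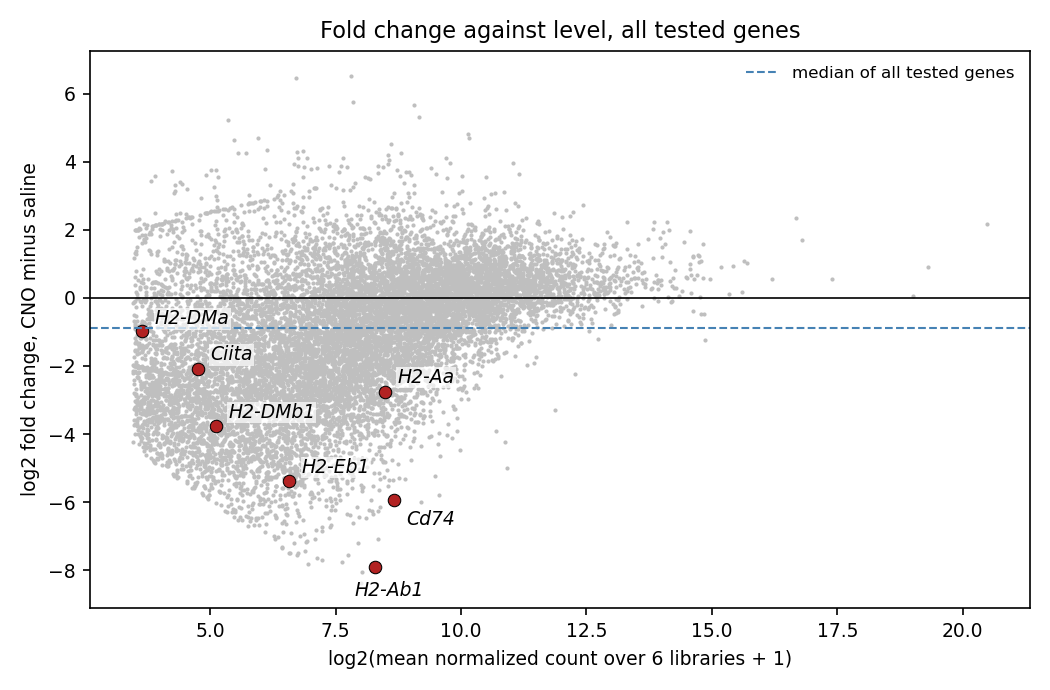
Log2 fold change of CNO minus saline (vertical axis) against the log2 mean normalized count (horizontal axis) for the 13028 tested genes in grey and the 7 class II genes in red, with the median of all tested genes as a dashed line at -0.89. H2-Ab1 and Cd74 lie at the lower edge of the genes of their level, at -7.91 and -5.93, and H2-DMa lies close to the median.

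Levels of different genes can be compared after division by the exonic length. In saline, normalized counts per kilobase averaged 465 ± 622 for Cd74, 241 ± 180 for H2-Ab1, 100.4 ± 54.9 for H2-Aa, 90.1 ± 66.4 for H2-Eb1, 38.1 ± 35.9 for H2-DMb1, 5.94 ± 10.3 for H2-DMa and 1.98 ± 0.420 for Ciita (SD, n = 3). Each step in this order was smaller than the larger SD of the 2 genes it lay between. That SD is a spread between libraries and not the spread of a difference within a library. H2-Ab1 lay above H2-Aa per kilobase in saline 3 (445 and 162), saline 4 (177 and 82.2) and saline 5 (102 and 57.0). H2-DMb1 likewise lay above H2-DMa in each saline library (35.1 and 0, 3.81 and 0, 75.4 and 17.8). The order of the other neighbours changed between saline libraries. The per-kilobase level of Cd74 was 2.66 times that of H2-Ab1 in saline 3, 0.526 times in saline 4 and 1.16 times in saline 5. In the CNO means H2-Aa led at 87.1 ± 134 per kilobase, followed by Cd74 at 16.3 ± 27.3. H2-Eb1 was at 7.10, Ciita at 3.44, H2-DMb1 at 1.71, H2-Ab1 at 1.15 and H2-DMa at 0.715. The lead of H2-Aa and Cd74 came from CNO 1, at 241 and 47.8. In CNO 2, H2-Eb1 (21.3) lay above H2-Aa (19.7) and Cd74 was at 0.441. In CNO 3, H2-DMb1 was highest at 1.15.

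Other genes of the pathway did not pass in limma in either direction. Of the remaining class II chain and loading genes, H2-Eb2 had 0 reads in all libraries, H2-Oa and H2-DMb2 were below the filter, and H2-Ob, an inhibitor of H2-M, ranged from 0 to 31.0 in CNO and from 1.13 to 24.0 in saline. Of the 7 DNA-binding partners of Ciita protein, 0 were called and 1 was lower in CNO without overlap, a share near the 12.5% of all tested genes. The 1 was Rfx5, a subunit of the RFX complex, with 0, 147 and 58.2 in the CNO libraries and 919, 246 and 182 in the saline libraries, in order of number (log2 fold change -4.07, limma adjusted p = 0.550). Nfya, a subunit of NF-Y, ranged from 0 to 2144 within CNO and from 354 to 1828 in saline. Creb1 stood at 765 to 1965 in CNO and 585 to 1308 in saline.

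Endosomal enzymes that cut antigen and the invariant chain were abundant in both groups. Of 9 such genes and class II ubiquitin ligases in the table, 0 were called, 0 lacked overlap, and the median log2 fold change was -0.17. Over all tested genes, limma called 0.0% lower and 0.0154% higher, and 12.5% were lower and 4.57% higher without overlap. The median over all tested genes was -0.89. Ctss, the protease that trims the invariant chain in antigen-presenting cells, averaged 6344 ± 3820 in CNO and 9938 ± 4664 in saline (SD, n = 3 each), and March8, a ubiquitin ligase, 1779 ± 941 and 669 ± 254. March1, the ligase known to remove class II from the surface of antigen-presenting cells and named here after its values were seen, measured 220, 1110 and 8542 in CNO 1, 2 and 3, with a saline range of 1015 to 1962. March1 overlapped between groups (log2 fold change -0.17, limma adjusted p = 0.960). CNO 3, in which March1 was highest, held 4 class II reads, and CNO 1, in which March1 was lowest, held 236. Any link between March1 and class II reads was not tested. Of 4 tested costimulation genes, 0 were called and 1 was lower without overlap, where 12.5% of tested genes were. That was Icosl, the ligand of Icos, with 579, 256 and 492 in CNO 1, 2 and 3 and 797 to 860 in saline (limma adjusted p = 0.651). Cd86, a ligand of CD28, averaged 739 ± 879 in CNO and 665 ± 205 in saline.

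The interferon gamma pathway, the main inducer of Ciita, had its lowest fold changes among its induced genes. Ifng itself had 0 reads in all 6 libraries. Of 13 tested induced genes, 0 were called in limma and 1 in DESeq2, 6 were lower in CNO without overlap and 0 higher. Over all genes these shares were 0.0% and 0.0154% in limma, 1.56% lower in DESeq2, and 12.5% lower and 4.57% higher without overlap. The median log2 fold change was -2.69, against -0.89 over all tested genes. For tested genes with means of 10 to 50, 50 to 200 and 200 to 500 it was -2.33, -1.94 and -0.83. Cxcl9, a chemokine that attracts T cells, had 0, 0.740 and 0 normalized counts in the CNO libraries and 162 to 971 in saline. Its log2 fold change of -8.36 ± 1.93 did not pass in limma (adjusted p = 0.488) and passed in DESeq2 (adjusted p = 5.9e-07). Psmb9 and Tap1, which lie in the MHC and serve class I, had log2 fold changes of -5.73 ± 1.70 (limma adjusted p = 0.488) and -4.46 ± 2.09 (limma adjusted p = 0.537). Of the 13 log2 fold changes 11 were below 0 and 2 above. The 2 were Psmb8 at 0.10 and Gbp3 at 0.15 (limma adjusted p = 0.985 and 0.972), and both overlapped. Cxcl10, with the most reads of the 13, was at -0.58 and overlapped. Gbp2, a guanylate-binding protein, measured 0 to 68.8 in CNO and 55.4 to 230 in saline and overlapped. Of 7 tested signalling genes 0 were called, and 2 were lower in CNO without overlap, where 12.5% of tested genes were. Irf1 had the lowest log2 fold change of the 7, at -4.62 (limma adjusted p = 0.543), but overlapped. It measured 0, 5.18 and 38.8 in CNO 1, 2 and 3 and 664, 207 and 25.2 in saline 3, 4 and 5. Ifngr1, a receptor chain, stood at 1088 to 1262 in CNO and 1635 to 1919 in saline, and Irf8, a myeloid transcription factor, at 308 to 1471 and 1484 to 2886, both without overlap (limma adjusted p = 0.675 and 0.522).

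Markers of the cells known for class II were not uniformly lower beside it. The 7 border-associated macrophage markers took 3276, 3422 and 5635 RPM in CNO 1, 2 and 3 and 2489 to 3878 in saline, and 3 of them were higher in CNO without overlap, where 4.57% of tested genes were. One of the 3, Mrc1, the mannose receptor, stood at 25625 to 55623 in CNO and 14867 to 21632 in saline (limma adjusted p = 0.488). Microglia markers took 3491 to 9030 RPM in CNO and 9417 to 12283 in saline, without overlap in RPM. In normalized counts 2 of 10, Sall1 and Trem2, were lower without overlap, where 12.5% of tested genes were. Csf1r, the most abundant of the 10, overlapped in normalized counts, at 46840, 20814 and 68380 in CNO and 37091 to 37831 in saline. Dendritic cell markers took 5.37 to 12.7 RPM in CNO and 16.9 to 32.2 in saline. In normalized counts 1 of them, Zbtb46, stood at 208 in CNO 3 and at 0 to 49.6 in saline. Of the 10 dendritic cell markers, Clec9a and Ccr7 had 0 reads in all libraries and Flt3 had 9 in total. Of the 7 tested, 3 (Itgax, Itgae and Irf4) were lower in CNO without overlap, beside 12.5% of tested genes, and the log2 fold changes of 5 were below 0 and of 2 above, with 0 called in limma. Itgax, an integrin of dendritic cells and activated microglia, stood at 0, 5.18 and 0 in CNO and 90.7, 60.0 and 15.6 in saline 3, 4 and 5.

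B cell markers took 0 to 4.06 RPM in CNO and 1.08 to 8.24 in saline, and Cd79a and Pax5 were at 0 everywhere. T cell markers took 30.2 to 67.1 RPM in CNO and 83.7 to 133 in saline. Cd4 held the most of these reads, 3688 over the 6 libraries, and overlapped between groups in normalized counts. The defining gene Cd3e had 0 reads in all 6 libraries, and Cd3d and Cd3g had 1 and 3 in total. Icos, a costimulatory receptor of T cells in the same list, had 0 reads in all 3 CNO libraries. In saline 3, 4 and 5 Icos measured 105, 219 and 250 normalized counts. Of the 4 tested T cell markers Icos was the 1 lower without overlap, where 12.5% of tested genes were. It did not pass in limma (adjusted p = 0.488) and passed in DESeq2 (adjusted p = 0.00013), which called 1.56% of genes lower. Ccr2, of monocytes, ranged from 8.45 to 302 in CNO and from 28.8 to 73.0 in saline. The part of these cell types in the class II values was not tested, and no class II read can be assigned to a cell type here.

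**Figure D4:**
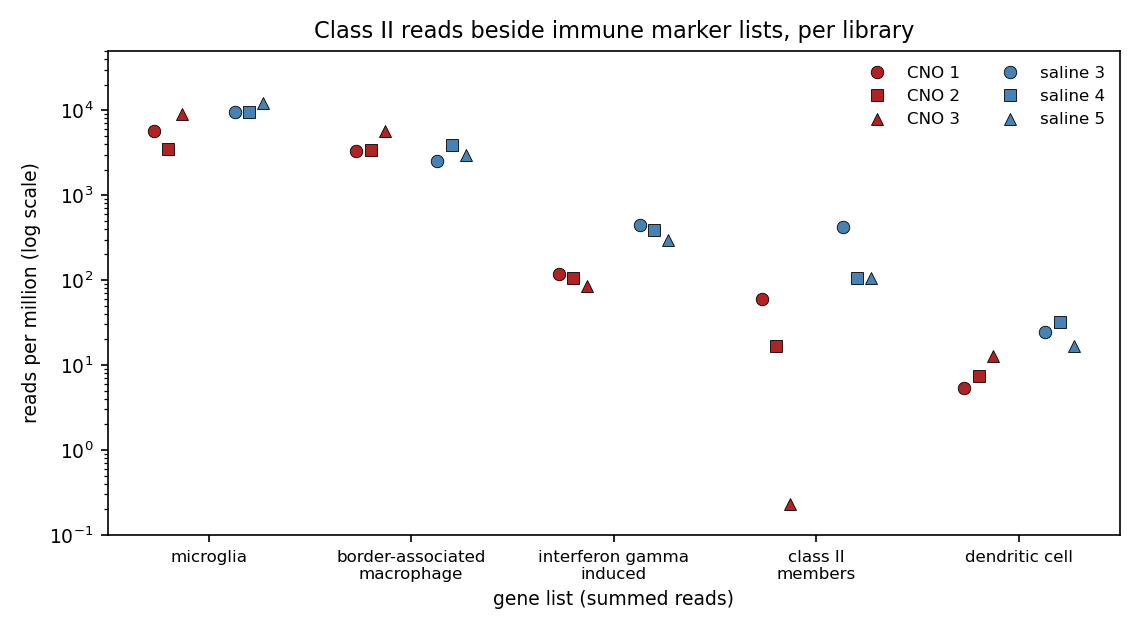
Summed RPM (vertical axis, log scale) of 5 gene lists in each library, CNO in red and saline in blue. The class II genes span 0.234 to 60.4 in CNO and 106 to 420.0 in saline, while border-associated macrophage markers overlap between groups. Microglia, interferon gamma induced and dendritic cell lists have all 3 CNO points below the lowest saline point in RPM. RPM sets the CNO libraries lower against saline than normalized counts do, and in normalized counts Csf1r, the most abundant microglia marker, overlapped.

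The mean log2 level of the 7 genes was 2.31, 4.06 and 0.50 in CNO 1, 2 and 3 and 6.95, 5.43 and 6.83 in saline 3, 4 and 5. Likeness to this profile was measured as the root-mean-square difference over the 6 libraries after centring. The closest other tested genes were Nxpe4 (0.433 on the log2 scale), Ndufa1 (0.447), Zfp518b (0.449), Ormdl2 (0.463) and Cpeb3 (0.505). The class II genes themselves lay 1.27 (H2-DMb1 and H2-Eb1) to 2.48 (Cd74) from their own mean. A total of 515 of 13021 other tested genes lay closer to it than the closest class II gene did, so the 7 genes varied among themselves more than their mean profile shows.

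Gene spans limit 2 of these values. Ciita overlaps Dexi on the opposite strand, which stood at 3305 normalized counts in CNO 1 and at 0 to 83.5 in the other libraries, and H2-DMa overlaps Brd2, at 1072 to 6926. Without known strand handling, reads where spans overlap cannot be told apart.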

How the data were processed

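RNA of 6 libraries of sorted cortical cells was analysed from the deposited table of normalized counts. The submitters' processing notes name the build mm10 and DESeq2 1.20.0, STAR 2.5.0a, Trimmomatic 0.4, MultiQC 0.9 and FastQC 0.10.1. Read counter, gene annotation and use of strand: not given in the sources used here. The deposited values are a signal, reads per gene that the authors divided by 1 size factor per library. In every library 100% of values were whole multiples of 1 step (tolerance 1e-06), which gave back whole reads, and 0 columns lacked a sample.

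The 13028 genes whose 6-library mean reached 10, the 7 class II genes among them, were tested with limma 3.58.1 (R 4.3.3) on log2(normalized count + 1), with a variance trend, 2-sided, with Benjamini-Hochberg adjustment over all tested genes at 0.05. Fold changes are thus differences of mean log2(value + 1), and for genes with low values or zeros they depend on the added 1. They differed from those of other tests in either direction. H2-Aa was at -2.75 in limma and -0.21 in DESeq2, and H2-DMa at -0.96 and -2.99. On the recovered reads, edgeR 4.0.16 called 0 genes and DESeq2 1.42.0 called 66 higher and 176 lower. Class II genes and lists were chosen with earlier results of these data known. All 7 were named, from other lists up to 4 genes of smallest p, the 3 most abundant markers and genes at 0 throughout, and the 5 genes most like the class II mean; other genes named were chosen after their values were seen. Coordinates and exonic lengths are from GENCODE release M21 (GRCm38, the assembly of mm10). Alternatives were other pseudocounts, filters, scalings and tests, and each library left out. Figures were drawn with matplotlib 3.10.9.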

Additional observations from a re-analysis of the deposited data

How the results depend on the processing

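Alternatives were run for the 7 class II genes and for the counts over all genes. Of 116 alternative values of the log2 fold changes, 103 kept direction and side of the threshold, and 4 (Cd74 and H2-DMa in both DESeq2 fits) kept direction with no adjusted p. H2-Ab1 passed in DESeq2 (-7.47) and in DESeq2 on all genes (-7.49), so these gave 1 and 1 class II genes as lower, and 0 passed otherwise. Its adjusted p ran from 5.2e-05 to 0.641. H2-DMa turned to 1.12 with quantile scaling and, among the libraries left out, to 1.02 without saline replicate 5 (range -1.99 to 1.02). Ciita turned to 1.06 with quantile scaling, 0.75 in edgeR, 0.81 in DESeq2, 0.84 in edgeR on all genes and 0.81 in DESeq2 on all genes. DESeq2 gave no p for Cd74, H2-DMa and Ciita. The cause of these changes was not tested.

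Over all genes, lower calls were 0 in limma, 176 in DESeq2, 3 in edgeR on all genes and 482 in DESeq2 on all genes. Higher calls were 2 in limma, 66 in DESeq2, 13 in edgeR on all genes, 77 in DESeq2 on all genes, and 0 with a mean of at least 50, quantile scaling, no trend, edgeR, and any 1 library left out (0 to 0). The median log2 fold change over all genes was -0.89 and moved to -0.08 with quantile scaling and 0.0044 in DESeq2, so values relative to it differ by method. The all-gene edgeR and DESeq2 fits were added after the data were seen. H2-DMa, H2-DMb1 and Ciita could not be fitted at a mean of at least 50. No paired analysis was possible because the groups share only replicate number 3. Depth limits CNO 1 most, where a count of 0 allows 12.7 normalized counts.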
